A study of Mus musculus with 8 samples.

Results

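The genes described here encode the lysosome's degradative enzymes, its membrane proteins, its proton pump and the transcription factors that control it. They are a list of 50 gene symbols, looked up by name in the deposited mouse liver table. All 50 were among the 55385 gene identifiers of the table, and all 50 were among the 14340 genes expressed highly enough to be tested. By role they comprised 3 regulators, 7 membrane proteins, 15 subunits or accessory proteins of the vacuolar ATPase (V-ATPase) and 25 hydrolases with their cofactors.

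RNA-seq was performed on livers of 4 Usp39-HKO mice and 4 control littermates, with 1 library per mouse. All 8 mice were males of 5 weeks of age that had been fasted for 16 h. Usp39 is a component of the spliceosome, and the comparison asks what its loss from hepatocytes does to the liver transcriptome. The Usp39-HKO mice carried Usp39 fl/fl alleles, with exon 2 flanked by loxP sites, together with Albumin-Cre, which is driven by a promoter active mainly in hepatocytes, on a C57BL/6J background. The controls are called WT in the labels and control littermates in the study, and whether they carried floxed alleles without Cre is not given in the sources used here. Liver cells in which that promoter is silent, such as macrophages and endothelial cells, would keep an intact gene.

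Lysosomes break down proteins, glycans and lipids delivered by endocytosis and autophagy, and most of their hydrolases work best in the acid that the V-ATPase maintains. In the liver this supplies amino acids, glucose and fatty acids during fasting, and it does so both in hepatocytes and in the resident macrophages. Tfeb, Tfe3 and Mitf are related transcription factors that bind a short palindromic E-box, which is found near the start of many lysosomal genes.

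The E-box was looked up in the 300 bases around the annotated starts (250 before to 50 after) in the RefSeq promoter table on GRCm38.p6, which held 44 of the 50 members. The longer motif TCACGTG, read on both strands, was present in 14 of the 44 (31.8%), against 4.29% of the 27025 genes of the table. The core CACGTG, which the longer motif contains, was found in 15 of 44 (34.1%) against 8.09% of genes. The related motif TCATGTG (M-box) was found in 8 of 44 (18.2%) against 4.31% of genes. Windows of 30 bases are given for the members with the longer motif whose RNA differed between genotypes, for Lamp1 as a member with the motif whose RNA did not pass the test, and for Ctss as a member with the M-box. The matched letters are in capitals, each sequence runs 5′ to 3′ along the gene's own strand, and the Gla and Atp6v0e windows match on both strands, 1 base apart.
Gaa (chr11:119267811-119267840, plus strand, motif from -141): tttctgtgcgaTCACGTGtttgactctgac
Naglu (chr11:101070009-101070038, plus strand, motif from -74): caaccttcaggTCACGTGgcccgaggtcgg
Mcoln1 (chr8:3500436-3500465, plus strand, motif from -72): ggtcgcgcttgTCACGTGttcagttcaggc
Gla (chrX:134601182-134601211, minus strand, motif from -195): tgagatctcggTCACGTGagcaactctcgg
Atp6v0e (chr17:26676387-26676416, plus strand, motif from 2): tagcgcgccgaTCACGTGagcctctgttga
Lamp1 (chr8:13159088-13159117, plus strand, motif from -62): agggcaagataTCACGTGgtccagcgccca
Ctss (chr3:95526793-95526822, plus strand, M-box from 18): ttgtggatgctTCATGTGacaagctccgat

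A match is only a description of these letters. Motif positions count from the annotated start, with negative values upstream. Each gene has 1 window printed, although some have further matches to the longer motif on either strand. These start at -45, -28 and -16 for Lamp1, at -46 for Mcoln1 and at -228 for Gla. Members with TCACGTG went in both directions. Of the 14 with it, 2 rose (Atp6v0e and Gla) and 3 fell (Gaa, Naglu and Mcoln1) by the test described below. Of the 30 without it, 5 rose and 3 fell. Over all genes tested, 10.9% rose and 11.6% fell. The other 6 were not in the promoter table.

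Counts assigned to genes summed to between 8589636 and 10418450 per liver. Levels are given as FPKM (fragments scaled to exon length and to the library total) divided by the liver's TMM factor, a scaling factor that edgeR computes from the bulk of genes. The TMM factors were 0.911 to 0.940 in control livers, against 1.01 to 1.19 in Usp39-HKO livers, so this scaling lowers the Usp39-HKO values relative to the deposited FPKM. Without the factors, the median gene stood 0.24 higher in Usp39-HKO livers on the log2 scale. Differences are log2 fold changes (Usp39-HKO relative to control) from edgeR's quasi-likelihood test with Benjamini-Hochberg adjustment over all 14340 genes, and a gene is said to have risen or fallen when its adjusted p is under 0.05. Hepatocyte markers defined the tissue, with Alb at 6444 to 9653 scaled FPKM in every liver. Usp39 itself was at 10.3, 11.3, 9.61 and 10.4 scaled FPKM in the 4 controls and at 8.28, 7.95, 8.18 and 6.79 in the 4 Usp39-HKO livers, without overlap. Its fall of 0.41 on the log2 scale had an edgeR adjusted p of 0.021, and of 0.25 without TMM factors. It is a partial check of the labels only, since reads of all exons were counted in whole liver. One library stood apart: the summed level of 7 pancreas acinar markers was 532 scaled FPKM in control A475, against at most 0.337 in the other controls and at most 1.86 in the Usp39-HKO livers. Counts of members are therefore also given without A475.

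Of the 50 members, 9 rose and 7 fell in Usp39-HKO livers compared with controls. These are 18% and 14% of the members, beside 10.9% of all genes tested that rose and 11.6% that fell. The 9 that rose were Cd63, Ctss, Gla, Atp6v0e, Asah1, Atp6ap2, Atp6v1d, Atp6v1e1 and Ctsb. The 7 that fell were Gaa, Naglu, Lamp2, Atp6v1h, Tfeb, Mcoln1 and Atp6v0a1. The median log2 fold change of the members was 0.01 and that of all genes tested was -0.0015. With the cutoff of the study's methods (unadjusted p under 0.05 and a log2 fold change beyond 0.5 in either direction), 4 members were higher and 2 lower, beside 12.1% and 9.62% of all genes. The scaled FPKM of the groups did not overlap for 9 members that were higher and 11 that were lower, beside 11.8% and 13.0% of all genes.

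The balance between rises and falls depended on the scaling. With library totals only, 20 members passed as higher and 2 as lower, beside 24.6% and 4.85% of all genes. Gaa and Naglu were the members that fell under both scalings, and the 9 that rose with TMM factors also rose without them. Tfeb, Lamp2, Mcoln1, Atp6v1h and Atp6v0a1 kept their direction but lost significance. Without control A475, 4 members passed as higher (Cd63, Ctss, Atp6v0e and Atp6v1d) and 2 as lower (Gaa and Naglu), beside 7.11% and 7.13% of all genes in that fit. The log2 fold change of Cd63 moved by 0.21 without that library and those of the other 15 called members by at most 0.05. Cd63, Ctss, Atp6v0e, Gaa and Naglu passed in all 15 alternative fits. The plot of log2 fold changes by role shows all 50 members, and the plot of both scalings shows how each moves with the scaling.

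**Figure D1:**
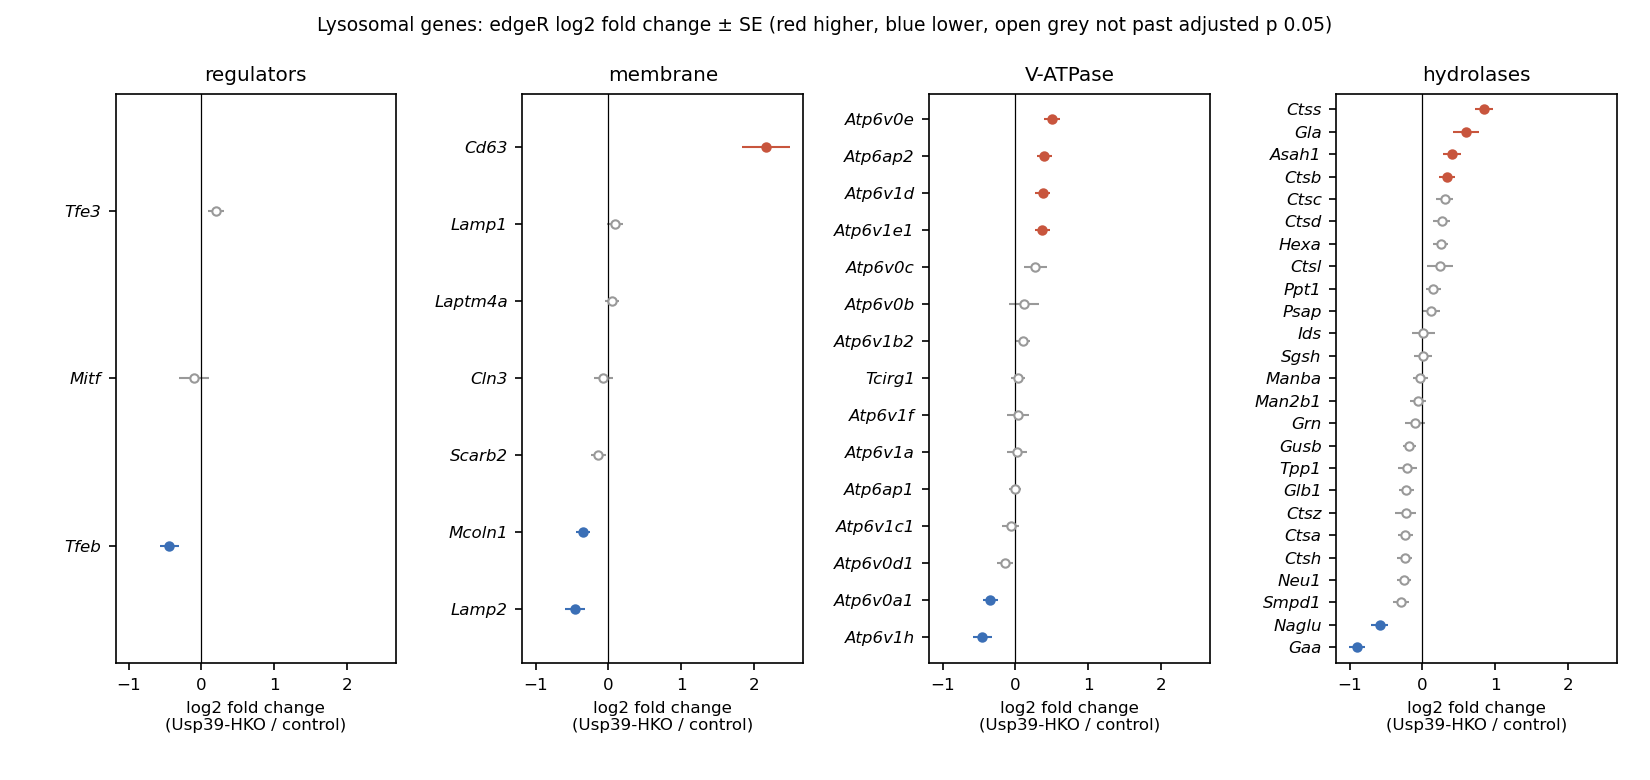
Log2 fold change in Usp39-HKO relative to control livers (x axis) with its standard error (bars) for the 50 members, in panels by role, from edgeR with TMM factors and 4 livers per group. Red points rose and blue points fell at an adjusted p under 0.05, and open grey points did not pass. Cd63, at 2.17, lies far to the right of the other members, which lie between -0.90 and 0.84.

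**Figure D2:**
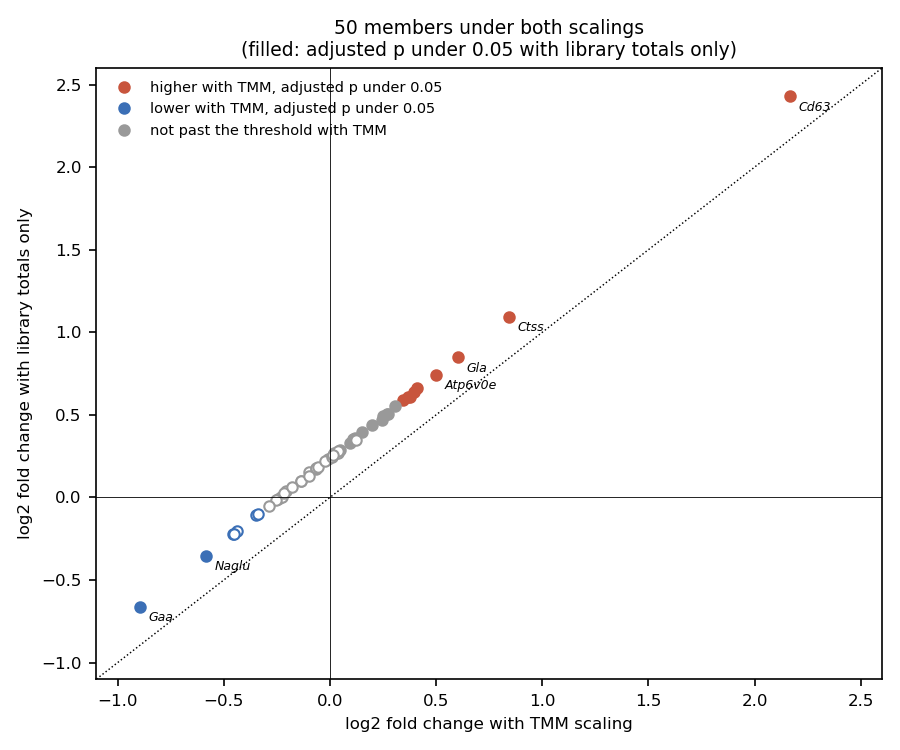
Log2 fold change of each of the 50 members with TMM factors (x axis) and with library totals only (y axis). The dotted line marks equal values, colours show the calls with TMM factors, and filled points passed an adjusted p of 0.05 with library totals only. The members lie along a line above the dotted one, and the 2 filled blue points are Gaa and Naglu.

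Among the regulators, Tfeb fell and the other two did not pass the test. Tfeb (ENSMUSG00000023990, GRCm38 chr17:47737030-47792419, plus strand), the factor named for transcription factor EB, was at 1.897, 1.99, 2.34 and 2.25 scaled FPKM in the control livers. It was at 1.69, 1.53, 1.49 and 1.53 in the Usp39-HKO livers, all below the lowest control. Its log2 fold change was -0.44 ± 0.14 (SE, n = 4 per group, edgeR adjusted p = 0.038). With library totals only it was -0.20 with an edgeR adjusted p of 0.32, and the deposited FPKM of the groups overlapped (1.73 to 2.14 in control livers, against 1.59 to 1.82 in Usp39-HKO livers). Tfeb passed in 2 of the 8 fits that left out 1 liver, with edgeR adjusted p-values of 0.041 to 0.12 over those fits.

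Tfe3 was the most abundant of the 3 regulators in both groups. It was at 4.27, 4.53, 4.28 and 4.27 scaled FPKM in controls and at 4.12, 5.43, 5.31 and 4.99 in Usp39-HKO livers. Usp39-HKO mouse A469 was below all controls and the other Usp39-HKO mice were above them. The log2 fold change of 0.20 ± 0.11 (SE) did not pass (edgeR adjusted p = 0.21), and with library totals only it was 0.44 (edgeR adjusted p = 0.023). Mitf, which also specifies melanocytes, was at 1.24 to 1.98 scaled FPKM in control livers, against 1.07 to 1.89 in Usp39-HKO livers, with overlapping groups and a log2 fold change of -0.10 ± 0.20 (SE, edgeR adjusted p = 0.77).

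A ratio of genes within a liver does not depend on the scaling between livers. The ratio of Tfe3 to Tfeb FPKM was 2.25, 2.28, 1.82 and 1.895 in controls and 2.44, 3.55, 3.55 and 3.25 in Usp39-HKO livers. Every Usp39-HKO liver was above every control, with means of 2.06 ± 0.235 and 3.20 ± 0.524 (SD, n = 4 each). The two-sided exact permutation test over the 70 assignments of livers gave p = 0.029, the smallest that 4 against 4 allows. The pairs were chosen with earlier results known, and each holds a member that passed the edgeR test, so the ratios are no independent evidence of those differences. Of 4 ratios compared in this way, each reached that p, and the Benjamini-Hochberg adjusted p was 0.029 for each. Without control A475 the log2 difference of this ratio was 0.59 instead of 0.63, with an exact permutation p of 0.057, and the other 3 ratios kept p = 0.029.

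The membrane proteins held both the largest rise among the members and a fall of the structural protein Lamp2. Cd63 (ENSMUSG00000025351, GRCm38 chr10:128900989-128912822, plus strand), a tetraspanin of late endosomes, lysosomes and exosomes, was at 3.44, 6.15, 3.50 and 2.08 scaled FPKM in controls. In Usp39-HKO livers it was at 8.81, 21.7, 15.4 and 22.0. All Usp39-HKO livers lay above all controls, with A469 the lowest of them. Its log2 fold change was 2.17 ± 0.33 (SE, edgeR adjusted p = 0.0018), a 4.49-fold higher level. Of the longest Cd63 transcript, 6.50% matches the pseudogene Cd63-ps at an identity of at least 97%, so reads there may have been assigned to either.

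Lamp2, a heavily glycosylated membrane protein that also serves as a receptor of chaperone-mediated autophagy, was at 105, 84.3, 109 and 96.7 scaled FPKM in controls. It was at 69.97, 83.4, 70.8 and 62.7 in Usp39-HKO livers. The groups did not overlap, but A470 came within 1 unit of the lowest control, A472. The log2 fold change was -0.46 ± 0.13 (SE, edgeR adjusted p = 0.029), against -0.22 (edgeR adjusted p = 0.19) with library totals only. Lamp1, its closest relative, was at 225 to 249 scaled FPKM in control livers, against 227 to 278 in Usp39-HKO livers, with overlap and a log2 fold change of 0.09 ± 0.11 (SE, edgeR adjusted p = 0.59). With library totals only it passed (0.33, edgeR adjusted p = 0.040), and its deposited FPKM did not overlap between the groups.

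The ratio of Lamp1 to Lamp2 FPKM was 2.21, 2.67, 2.26 and 2.57 in controls and 3.43, 3.33, 3.81 and 3.62 in Usp39-HKO livers. The groups were separate, with means of 2.43 ± 0.228 and 3.55 ± 0.214 (SD, n = 4 each, exact permutation p = 0.029). Mcoln1, the lysosomal calcium channel, fell from 5.17, 5.40, 5.38 and 5.19 scaled FPKM in controls to 3.74, 4.40, 4.38 and 4.05 in Usp39-HKO livers. Its log2 fold change was -0.35 ± 0.10 (SE, edgeR adjusted p = 0.024) with TMM factors and -0.11 (edgeR adjusted p = 0.50) with library totals only. Laptm4a, a transporter-like protein and the membrane member nearest to no difference, was at 109 to 124 scaled FPKM in control livers, against 113 to 131 in Usp39-HKO livers. Its log2 fold change was 0.05 with TMM factors and 0.28 (edgeR adjusted p = 0.046) with library totals only. Scarb2, the receptor that carries glucocerebrosidase to lysosomes, and Cln3, the protein lost in juvenile Batten disease, did not pass, with log2 fold changes of -0.14 and -0.07.

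The V-ATPase couples ATP hydrolysis by its peripheral V1 sector to proton transport through its membrane V0 sector. Of the 15 genes, 4 rose and 2 fell (26.7% and 13.3%, beside 10.9% and 11.6% of all genes tested). In V1, Atp6v1d (a subunit of the central rotor) and Atp6v1e1 (a subunit of the peripheral stalk) rose, and Atp6v1h, a regulatory subunit, fell. In V0, the small subunit Atp6v0e rose and Atp6v0a1, an isoform of the large a subunit, fell. Of the accessory proteins, Atp6ap2, also known as the prorenin receptor, rose, and Atp6ap1 did not pass. The catalytic subunit Atp6v1a and its nucleotide-binding partner Atp6v1b2 did not pass with TMM factors, with log2 fold changes of 0.02 and 0.11, and Atp6v1b2 passed with library totals only (0.35, edgeR adjusted p = 0.037).

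Atp6v0e was at 10.5, 10.9, 12.8 and 11.7 scaled FPKM in controls and at 13.8, 17.1, 17.7 and 16.3 in Usp39-HKO livers. All Usp39-HKO livers were above all controls, with a log2 fold change of 0.50 ± 0.11 (SE, edgeR adjusted p = 0.0088). Atp6v1d was at 8.47, 8.73, 8.19 and 9.12 scaled FPKM in controls and at 11.6, 10.9, 12.6 and 9.68 in Usp39-HKO livers (log2 fold change 0.38 ± 0.10, SE, edgeR adjusted p = 0.024). Atp6v1e1 was at 29.6, 26.6, 29.5 and 28.2 scaled FPKM in controls and at 40.5, 38.7, 31.5 and 36.2 in Usp39-HKO livers (log2 fold change 0.37 ± 0.10, SE, edgeR adjusted p = 0.025). Both were separate between the groups by a narrow gap, set by A474 for Atp6v1d and by A471 for Atp6v1e1. Atp6ap2 was at 19.9, 20.8, 18.2 and 16.8 scaled FPKM in controls and at 23.8, 23.1, 26.4 and 26.3 in Usp39-HKO livers (log2 fold change 0.40 ± 0.10, SE, edgeR adjusted p = 0.017). Its longest transcript shares 18.8% of its bases with Gm36448, and reads there may have been assigned to either.

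The pair that fell had lower, narrowly separate values in Usp39-HKO livers. Atp6v1h was at 7.69, 6.67, 6.99 and 6.77 scaled FPKM in controls and at 6.17, 5.54, 4.10 and 4.68 in Usp39-HKO livers (log2 fold change -0.45 ± 0.13, SE, edgeR adjusted p = 0.025). Atp6v0a1 was at 13.2, 11.8, 13.7 and 12.7 scaled FPKM in controls and at 10.8, 10.3, 8.28 and 11.2 in Usp39-HKO livers (log2 fold change -0.34 ± 0.11, SE, edgeR adjusted p = 0.044). With library totals only, neither passed (log2 fold changes of -0.22 and -0.10).

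Tcirg1 encodes the a3 subunit, an alternative to Atp6v0a1 in the same position of the pump that is prominent in osteoclasts and macrophages. It was at 11.8, 11.8, 11.99 and 10.96 scaled FPKM in controls and at 11.5, 11.8, 11.3 and 13.1 in Usp39-HKO livers, with overlap (log2 fold change 0.04 ± 0.09, SE, edgeR adjusted p = 0.81). The ratio of Tcirg1 to Atp6v0a1 FPKM was 0.894, 0.994, 0.873 and 0.865 in controls and 1.07, 1.15, 1.36 and 1.17 in Usp39-HKO livers. Per length, Atp6v0a1 was thus the more abundant in all 4 controls, narrowly in A472, and Tcirg1 in all 4 Usp39-HKO livers (means 0.907 ± 0.0597 and 1.19 ± 0.126, SD, n = 4 each, exact permutation p = 0.029). The order of the 2 genes depends on the exon lengths used, 6556 bases for Atp6v0a1 and 4603 for Tcirg1. Raw counts of Atp6v0a1 exceeded those of Tcirg1 in every liver. In Usp39-HKO livers they were 694 against 519, 748 against 603, 551 against 527 and 826 against 678. Atp6ap1, an assembly factor of the pump, had the V-ATPase group's log2 fold change nearest to 0, at 25.1 to 26.9 scaled FPKM in control livers, against 25.2 to 27.5 in Usp39-HKO livers. The summed level of the 7 V1 genes was 116 to 126 scaled FPKM in control livers, against 122 to 135 in Usp39-HKO livers, and that of the 6 V0 genes was 131 to 149 and 133 to 157, both with overlap.

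**Figure D3:**
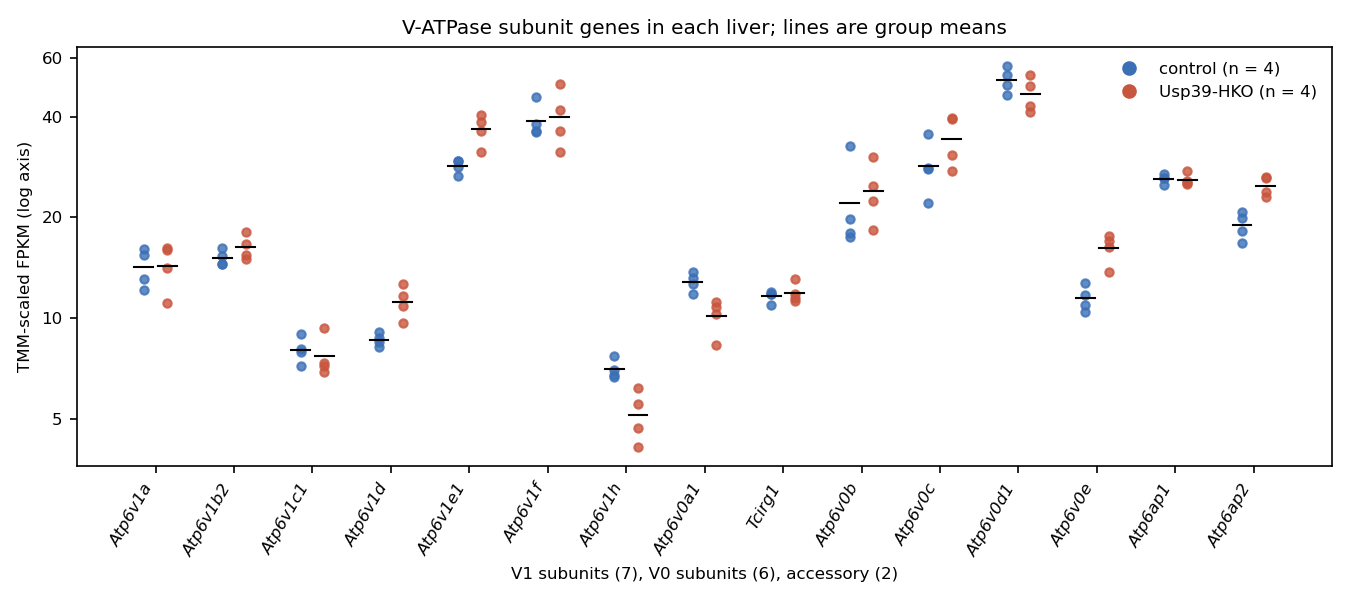
Level of each V-ATPase gene in scaled FPKM on a log axis, with 1 point per liver (blue control, red Usp39-HKO, n = 4 each) and lines at the group means. Points of Atp6v1d, Atp6v1e1, Atp6v0e and Atp6ap2 are higher in all Usp39-HKO livers, and those of Atp6v1h and Atp6v0a1 are lower in all of them.

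Among the 25 hydrolases and cofactors, 4 rose and 2 fell (16% and 8%, beside 10.9% and 11.6% of all genes tested). Gaa and Naglu, 2 of 11 genes for glycan degradation, fell. The summed level of those 11 was 167 to 179 scaled FPKM in control livers, against 144 to 156 in Usp39-HKO livers, without overlap. Without Gaa the sums overlapped (125 to 132 against 121 to 130), as did those of all 11 in deposited FPKM (153 to 169 against 150 to 172). Gaa (ENSMUSG00000025579, GRCm38 chr11:119267887-119285454, plus strand), the acid alpha-glucosidase that releases glucose from lysosomal glycogen, was at 46.2, 45.7, 42.8 and 46.9 scaled FPKM in controls. It was at 27.7, 26.1, 21.3 and 22.4 in Usp39-HKO livers, all below the lowest control. The log2 fold change was -0.90 ± 0.11 (SE, edgeR adjusted p = 0.00067), a level 46.3% lower in these terms, and -0.66 (edgeR adjusted p = 0.0016) with library totals only. In the deposited FPKM the groups were also separate, at 39.0 to 44.1 and 22.7 to 28.3.

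Naglu, which removes N-acetylglucosamine from heparan sulfate, was at 16.3, 16.7, 16.8 and 15.7 scaled FPKM in controls and at 13.5, 9.86, 10.5 and 9.81 in Usp39-HKO livers. Its log2 fold change was -0.58 ± 0.12 (SE, edgeR adjusted p = 0.0059), with A469 nearest to the controls, and -0.35 (edgeR adjusted p = 0.033) with library totals only. Gla, the alpha-galactosidase that is deficient in Fabry disease, went the other way. It was at 1.72, 1.41, 2.11 and 1.53 scaled FPKM in controls and at 2.18, 2.57, 2.75 and 2.74 in Usp39-HKO livers (log2 fold change 0.60 ± 0.18, SE, edgeR adjusted p = 0.032). It rested on 42 to 101 counts per liver. Sgsh, the heparan N-sulfatase, was the hydrolase nearest to no difference, at 3.01 to 3.41 scaled FPKM in control livers, against 2.82 to 3.71 in Usp39-HKO livers, and 21.6% of its exon bases overlap genes on the other strand. The groups of the glycosidases Glb1, Gusb and Neu1 (beta-galactosidase, beta-glucuronidase and sialidase) did not overlap, with lower scaled FPKM in Usp39-HKO livers, but their log2 fold changes of -0.22, -0.18 and -0.25 did not pass (edgeR adjusted p = 0.17, 0.17 and 0.076).

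Of the 9 proteases, Ctss and Ctsb rose. Ctss (ENSMUSG00000038642, GRCm38 chr3:95526786-95556403, plus strand), a cysteine protease of antigen-presenting cells and macrophages, was at 54.3, 55.8, 47.5 and 56.1 scaled FPKM in controls. It was at 84.4, 88.6, 90.9 and 119 in Usp39-HKO livers, all above all controls and with A474 the highest. Its log2 fold change was 0.84 ± 0.12 (SE, edgeR adjusted p = 0.0014). Ctsb, a broadly expressed cysteine protease, was at 115, 117, 110 and 107 scaled FPKM in controls and at 133, 145, 139 and 151 in Usp39-HKO livers (log2 fold change 0.34 ± 0.11, SE, edgeR adjusted p = 0.039). The groups were separate, and 12.8% of its exon bases overlap genes on the opposite strand, whose reads could not be told apart.

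The other 7 proteases did not pass with TMM factors. The aspartic protease Ctsd and the dipeptidyl peptidase Ctsc had log2 fold changes of 0.27 and 0.31, and Ctsl, a cysteine protease, 0.24. These 3 passed with library totals only, at 0.51, 0.55 and 0.47. Ctsa, the protective protein of sialidase, Ctsh and Ctsz, 2 exopeptidases, and the tripeptidyl peptidase Tpp1 had log2 fold changes between -0.24 and -0.20, and the groups of Ctsa did not overlap. The value of Ctsd includes exons of which 34.4% overlap Gm49369 on the same strand, and 26.8% of Ctsl exon bases overlap genes on the opposite strand. The ratio of Ctss to Ctsd FPKM was 0.433, 0.401, 0.392 and 0.530 in controls and 0.575, 0.669, 0.560 and 0.802 in Usp39-HKO livers. Control A475 was the highest of the controls and lay just below Usp39-HKO A471, and the groups were separate (means 0.439 ± 0.0632 and 0.651 ± 0.111, SD, n = 4 each, exact permutation p = 0.029).

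Of 5 genes for lipid breakdown and for cofactor or granulin precursors, Asah1, the acid ceramidase, rose. It was at 18.4, 17.0, 18.5 and 17.3 scaled FPKM in controls and at 20.2, 23.6, 21.0 and 29.7 in Usp39-HKO livers (log2 fold change 0.41 ± 0.12, SE, edgeR adjusted p = 0.034). All Usp39-HKO livers were above all controls, and A474 was well above the rest. Smpd1, the acid sphingomyelinase that produces ceramide, had a log2 fold change of -0.29 ± 0.11 (SE, edgeR adjusted p = 0.073). Psap, the precursor of the saposin cofactors, was the most abundant member, with a share of the summed member FPKM of 14.3% in controls and 14.9% in knockouts, and did not pass (log2 fold change 0.12), but passed with library totals only (0.36, edgeR adjusted p = 0.047). Psap, Lamp1, Ctsz, Ctsl, Grn and Ctsd together made up 50.9% of that sum in controls. The summed level of all 50 members was 2245 to 2421 scaled FPKM in control livers, against 2313 to 2524 in Usp39-HKO livers, with overlap.

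**Figure D4:**
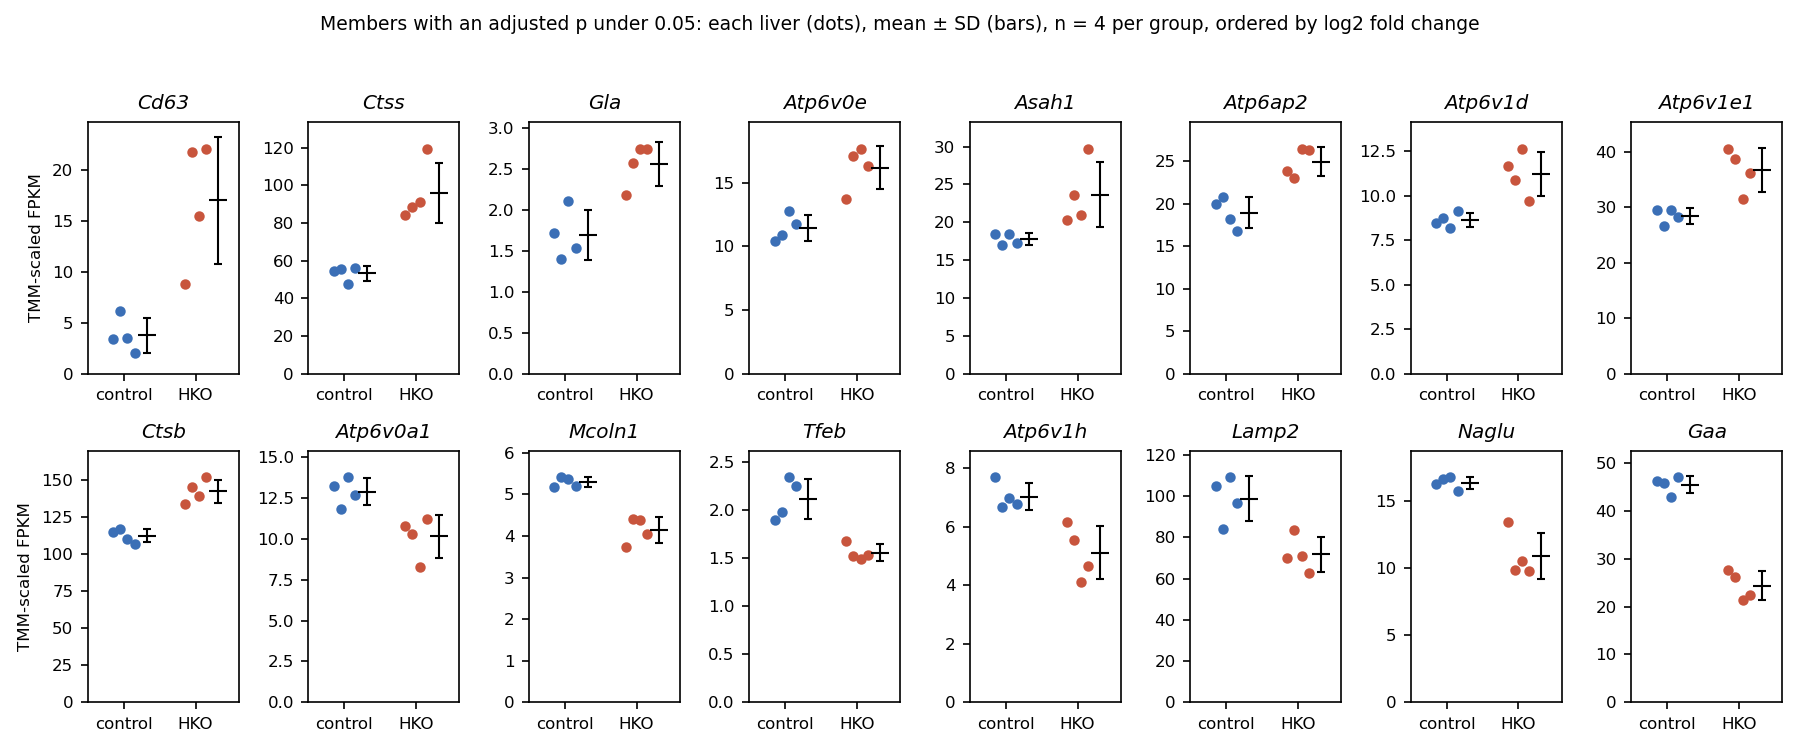
Level of the 16 members that rose or fell, in scaled FPKM (y axis from 0, a scale for each panel), with 1 point per liver (blue control, red Usp39-HKO) and bars at mean ± SD, n = 4 each. The panels run from Cd63, the largest rise, to Gaa, the largest fall, and the groups do not overlap in any of the 16.

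**Figure D5:**
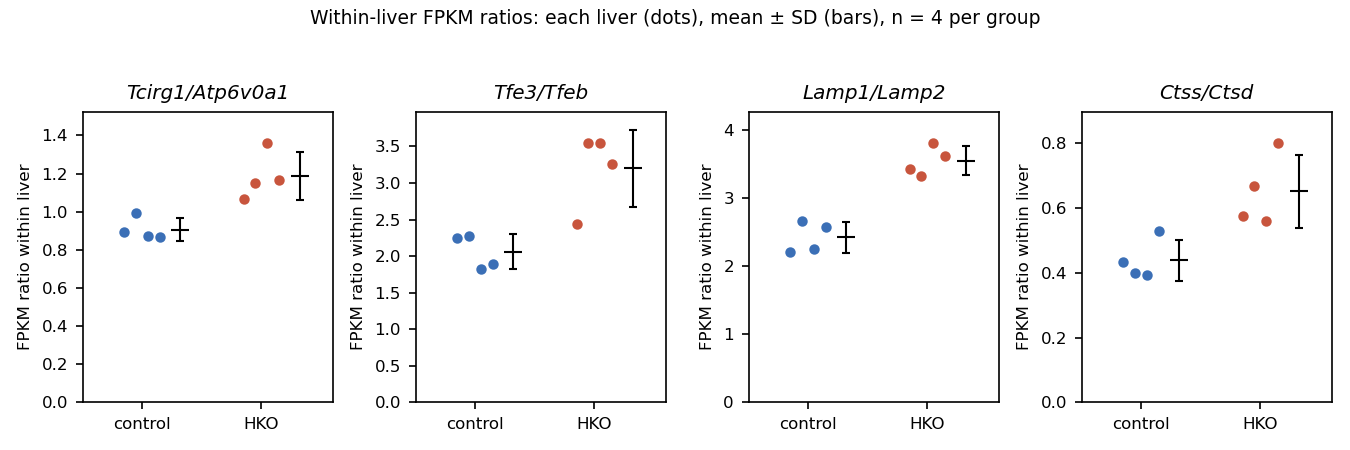
Ratio of FPKM within each liver for the gene pairs Tcirg1/Atp6v0a1, Tfe3/Tfeb, Lamp1/Lamp2 and Ctss/Ctsd (y axis from 0), with 1 point per liver and bars at mean ± SD, n = 4 per group. All 4 Usp39-HKO livers lie above all 4 controls in each panel, with the narrowest gap for Ctss/Ctsd between 0.530 and 0.560.

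By role, the median log2 fold change was -0.10 for regulators, -0.07 for membrane proteins, 0.04 for V-ATPase genes and -0.02 for hydrolases with TMM factors. With library totals only, all of these medians were positive (0.15, 0.17, 0.28 and 0.22), beside 0.24 for all genes tested.

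Markers of other liver cells differed between the same livers. Of 10 markers of Kupffer cells and macrophages, 8 rose and Adgre1 and Timd4 did not pass, and the summed level of the 10 was 486 to 679 scaled FPKM in control livers, against 760 to 988 in Usp39-HKO livers. Of 9 markers of stellate cells and fibroblasts, 7 rose, with sums of 72.7 to 88.3 and 112 to 208. No marker on these lists was at 0 in all livers. Ctss is also expressed by macrophages, and Cd63 by macrophages and stellate cells. The part of these and other cell types in the rises was not tested. Of 8 hepatocyte markers, 3 fell (Cps1, Cyp2e1 and Asgr1) and the other 5 did not pass. The summed hepatocyte level was 18303 to 20535 scaled FPKM in the controls, 20253 in Usp39-HKO A469, and 12460 to 16962 in the other 3 Usp39-HKO livers. Of the markers tested, 3 of 5 for monocytes and recruited macrophages and 3 of 3 for cholangiocytes rose, and 2 of 7 for endothelial cells and 3 of 3 for erythroid cells fell. None of 11 markers of neutrophils, T and NK cells and B cells passed edgeR, 1 had an unadjusted p under 0.05, and 1 passed DESeq2 and 2 limma. In bulk liver, fewer or more cells of a type and less or more RNA per cell cannot be told apart.

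Other genes of the lysosome were read from a list of 81, of which 80 were in the table and 73 were tested. Of these 73, 9 rose and 11 fell (12.3% and 15.1%, beside 10.9% and 11.6% of all genes). Other hydrolases and cofactors (30 genes) had 5 rises and 4 falls, and other membrane proteins (19) had 2 rises and 6 falls, those of Npc1, Slc17a5, Mfsd8, Clcn7, Sidt2 and Tpcn1. None of the 11 genes for sorting enzymes to the lysosome passed edgeR, 3 had an unadjusted p under 0.05, and 1 passed DESeq2 and 1 limma. With library totals only, 20 of the 73 passed as higher and 1, Ctsf, as lower, beside 24.6% and 4.85% of all genes. Without control A475, 7 rose and 6 fell, beside 7.11% and 7.13%.

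The largest difference on that list was of Rragd, a Rag GTPase that links amino acid supply to mTORC1 and is a known target of Tfeb and its relatives. It was at 0.601, 1.02, 0.716 and 0.434 scaled FPKM in controls and at 1.87, 3.18, 3.31 and 5.04 in Usp39-HKO livers (log2 fold change 2.28 ± 0.32, SE, edgeR adjusted p = 0.0012). All Usp39-HKO livers were above all controls. Rragd belonged to a group of relatives, control genes and known targets of Tfeb and its relatives, of which 8 were tested. In that group 1 rose, which was Rragd, and 1 fell (12.5% each, beside 10.9% and 11.6% of all genes). The median log2 fold change of the 8 was -0.17, with 3 positive and 5 negative. Atp6v0e2, a paralog of Atp6v0e, rose from 0.300 to 0.351 scaled FPKM in controls to between 0.621 and 1.30 (log2 fold change 1.47, edgeR adjusted p = 0.0081), a level far below that of Atp6v0e per length. The V-ATPase paralogs Atp6v1b1, Atp6v1e2 and Atp6v1g3 had no counts in any liver.

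Of the protease genes on the list, Ctsk, a collagen-degrading cathepsin, and Lgmn, the asparaginyl endopeptidase, rose (log2 fold changes 1.26 and 0.73, edgeR adjusted p = 0.017 and 0.0017). Ctsf, another cysteine cathepsin, fell by 0.80 on the log2 scale (edgeR adjusted p = 0.0015), from 10.7 to 12.6 scaled FPKM in controls to between 5.81 and 7.84 in Usp39-HKO livers. Cd68 and Laptm5, membrane proteins mainly of macrophages and other blood cells, rose (log2 fold changes 0.86 and 0.75, edgeR adjusted p = 0.018 and 0.0018). Galns, a sulfatase of keratan sulfate breakdown, rose from 3.95 to 5.24 scaled FPKM in controls to between 6.77 and 8.73 (log2 fold change 0.62, edgeR adjusted p = 0.0089). The groups of Ctsf, Lgmn, Laptm5 and Galns did not overlap, whereas Cd68 overlapped through A469 at 16.2 scaled FPKM, below control A475 at 17.9.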

How the data were processed

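Liver RNA was extracted with TRIzol, made into libraries with the NEB Next Ultra RNA kit and sequenced as paired ends on an Illumina NovaSeq. Per the submitters' processing notes and the study's methods, the authors used Trim Galore 0.6.1, FastQC 0.11.9, HISAT2, Picard, featureCounts and DESeq2 on mm10. The annotation release and the strand setting are not given in the sources used here. The authors deposited raw counts per gene and liver, the exon length, and FPKM computed from these counts. FPKM was recovered from counts, lengths and totals. They also deposited, from their DESeq2 comparison, a mean normalized signal, a log2 fold change, its standard error and a test score, and unadjusted and adjusted p-values. These columns were not used.

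Entries repeated with another symbol (314 of 55699) were read once. Genes that reached an FPKM of 0.5 in no fewer than 4 livers were tested with edgeR 4.0.16 (glmQLFit and glmQLFTest, TMM factors, genotype only) in R 4.3.3. The common biological coefficient of variation came to 0.179. Standard errors come from the F statistic. P-values are two-sided. The fit was first tested on simulated data. The counts came from 8589636 to 10418450 assigned fragments per liver, and each error is the spread between livers or the standard error of the fit. Ratios were compared with exact permutation tests on log2 values, two-sided, with Benjamini-Hochberg adjustment over 4. Gene coordinates and exon overlap come from GENCODE vM21, and shared sequence from BLAST+ (150 bases, 97% identity). Each gene has 1 total, so isoforms are not resolved.

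The members and the gene lists were chosen with earlier results of these data known. Named with values per liver were members with an adjusted p under 0.05, Tfeb, Tfe3, Mitf, Lamp1, Lamp2 and Tcirg1, and in each role the member nearest to no difference. From the other pathway list the 8 genes that passed with the largest differences were named. Other genes that were named outside this rule were chosen after their values were seen. The alternatives were other scaling factors, no scaling factors, DESeq2 1.42.0, no filter, a mean FPKM of at least 5, limma 3.58.1 on log2(FPKM + 1) and log2(FPKM + 0.1), and each liver left out in turn. Sums of glycan degradation genes without Gaa and in deposited FPKM were added after seeing the data.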

Additional observations from a re-analysis of the deposited data

Results flagged for a closer look

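Dixon's test for a value far from the others was applied to the scaled FPKM of the 50 members in both groups of 4 livers, and 2 of the 100 groups passed its critical value, where chance alone gives about 1 in 20. Both were in control A472. Tfe3 was at 4.53 scaled FPKM there, against 4.27 to 4.28 in the other controls, a gap that is small beside the 4.12 to 5.43 of the Usp39-HKO livers. Atp6v0b, a proteolipid subunit of V0, was at 32.7 scaled FPKM there, against 17.5 to 19.9 in the other controls, and 11.8% of its exon bases overlap genes on the opposite strand.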

How the results depend on the processing

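Members called: with library totals only, 20 were higher and 2 lower. With limma on log2(FPKM + 1) or log2(FPKM + 0.1), 17 were higher and 2 lower, where 21.1% and 4.44% of all genes passed with the first and 21.3% and 4.37% with the other. With no filter 5 were higher, beside 6.41% of all genes, and with a mean FPKM of at least 5, 3 were lower, beside 12.7%. Leaving out 1 liver gave 4 to 11 higher and 2 to 7 lower, with 6.85% to 12.9% of all genes higher and 6.62% to 11.6% lower. RLE factors and DESeq2 kept all 16, and 6 to 13 of the 16 remained with 1 liver left out. The lowest count, 6, came without control A468, A473 or A475. By the study's cutoff, 12 were higher and 1 lower with library totals only, beside 3188 and 614 of all 14340 genes tested. With limma, 11 (log2(FPKM + 1)) or 12 (log2(FPKM + 0.1)) were higher and 1 lower by that cutoff, beside 2024 and 515 of all genes with the first. Other pathway genes: with library totals only 20 were higher and 1 lower, and with limma 18 and 1 under both pseudocounts. With DESeq2 14 were higher, beside 11.9% of all genes, and with a mean FPKM of at least 5, 5 were lower. With 1 liver left out 5 to 10 were higher and 4 to 10 lower.

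Median log2 fold changes with library totals only were 0.25 for members, 0.15 for regulators, 0.17 for membrane proteins, 0.28 for V-ATPase genes and 0.22 for hydrolases. With limma on log2(FPKM + 1) they were 0.21, 0.079, 0.12, 0.25 and 0.18, and on log2(FPKM + 0.1) 0.24, 0.11, 0.17, 0.27 and 0.21. With a mean FPKM of at least 5, the median was 0.11 for members and 0.13 for membrane proteins, and no regulator was left. Leaving out 1 liver gave medians of -0.24 to 0.051 for regulators. Usp39 had a log2 fold change of -0.18 with library totals only (edgeR adjusted p = 0.25), and edgeR adjusted p-values of 0.055 without control A475 and 0.061 without Usp39-HKO A474.

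The mean summed level of the 11 glycan degradation genes differed by -24.8 scaled FPKM (Usp39-HKO minus control). In alternatives chosen after seeing the data, the difference was -3.73 without Gaa and 1.92 in deposited FPKM.

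Log2 differences of the ratios with 1 liver left out were 0.32 to 0.43 for Tcirg1/Atp6v0a1, 0.57 to 0.75 for Tfe3/Tfeb and 0.46 to 0.66 for Ctss/Ctsd, with exact permutation p of 0.029 or 0.057. The causes of these differences between settings were not tested. Over the single genes named, 362 of 456 values under an alternative stayed on the same side of the threshold, 84 lost significance and 10 gained it. None changed sign among those called. Genes called in neither fit could change sign, as Mitf did (-0.10 with TMM factors and 0.15 with library totals only). The replicate numbers pair no samples, so no paired analysis was possible because the mice carry no shared numbers. With 4 livers per group, low genes such as Tfeb, Mitf and Gla rest on 42 to 132 counts per liver.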
